A study of Mus musculus with 4 samples.

Results

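Jarid2 and 9 further genes that encode subunits of the Polycomb repressive complexes were followed in nascent RNA of mouse embryonic stem (ES) cells. The 10 genes, of 54146 mouse genes counted, were chosen by name: Jarid2, Mtf2 and Aebp2 (accessory subunits of PRC2), Ezh2, Ezh1, Eed and Suz12 (the core of PRC2), and Rnf2, Cbx7 and Scmh1 (PRC1). The groups were 2 libraries from ES cells labelled Supt3 KO and 2 from ES cells labelled Supt3 WT. All cells were kept in serum with the cytokine LIF, and all RNA had been labelled with 4-thiouridine (4sU), which marks transcripts made during the labelling time, with 4sU-labelled S. pombe RNA added as a spike. The mutant allele, the parental line, the number of clones, the labelling time and the age or sex of the line were not given in the sources used here. SAGA, to whose core SUPT3 belongs, is a coactivator complex of transcription. The labels do not tie the 2 libraries of each genotype to different cultures, and p-values here reflect the library-to-library spread alone, part of which may be technical.

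Polycomb complexes hold developmental genes silent in ES cells. PRC2 places methyl groups on lysine 27 of histone H3. Its catalytic subunit EZH2 or EZH1 works only together with EED and SUZ12, and accessory subunits steer it to chromatin in 2 forms. MTF2 and the other Polycomb-like proteins define PRC2.1, while AEBP2 and JARID2 define PRC2.2, in which JARID2 also contacts the H2A ubiquitin mark. PRC1 places that mark through RNF2 (RING1B). Canonical PRC1 contains a CBX protein such as CBX7 that binds methylated H3 and thereby follows PRC2, whereas variant PRC1 contains RYBP or YAF2 instead.

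The libraries held 13092151 and 18386501 mouse counts in KO and 13512654 and 19405100 in WT. Spike counts were 4836407 and 3786899 in KO and 4155518 and 3462802 in WT. In each genotype, replicate 2 thus had more mouse counts and fewer spike counts than replicate 1. Supt3 itself, counted over its whole span on chromosome 17, had 123 and 140 counts per 1000000 mouse counts (CPM, scaled by TMM factors) in KO and 148 and 159 CPM in WT (log2 fold change −0.22 ± 0.10 SE, adjusted p = 0.232 by edgeR's quasi-likelihood test). As the allele is not given, a count over the whole gene checks neither label. The ES cell markers summed to 1696 and 1890 CPM in KO and 2305 and 2309 CPM in WT over 10 genes. Of these, 9 were tested, 2 with a positive and 7 with a negative log2 fold change, and Nanog passed as lower. The largest differences in CPM were those of Esrrb (mean 334 in KO, 578 in WT) and Zfp42 (336 in KO, 517 in WT). Neither passed (adjusted p = 0.0682 and 0.0639, edgeR). Sox2 was listed at 0 in all libraries because its whole span lies within Sox2ot on the same strand. Primitive endoderm markers summed to 822 and 1178 CPM in KO and 403 and 493 CPM in WT, with 7 of 9 genes called higher. Over all tested genes edgeR called 4.05% higher and 4.02% lower, the shares beside which each marker call here is to be read. Fibroblast markers summed to 5.19 and 4.94 CPM in KO and 6.45 and 5.12 CPM in WT. Neural markers summed to 58.7 and 51.9 CPM in KO and 42.4 and 36.2 CPM in WT, with Sox1 and Tubb3 at 0 because their spans are shared. Of the 2 neural markers tested, Nes was called higher (44.2 and 31.3 CPM in KO, 23.3 and 14.7 CPM in WT) and Pax6 stood at −0.20 log2 units. The part that a change in cell types has in any result below was not tested. In bulk RNA, fewer cells of a type and less RNA per cell cannot be told apart.

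Jarid2 stood second among all mouse genes in counted nascent RNA. In mm10 it occupies bases 44729474 to 44921643 of chromosome 13, plus strand, a span of 192 kb. It collected 47806 and 75438 counts in the KO libraries and 56739 and 87956 counts in the WT libraries, which is 0.365% and 0.410% of all mouse counts in KO and 0.420% and 0.453% in WT. Its rank by CPM was 2 in both KO libraries, 3 in WT replicate 1 and 2 in WT replicate 2. Above it was Gm26917, a long intergenic RNA of 3.33 kb, with 6448 ± 388 CPM in KO and 7316 ± 169 CPM in WT (SD, n = 2 each). Jarid2 averaged 3889 ± 485 CPM in KO and 4378 ± 311 CPM in WT. The next genes were the mitochondrial mt-Nd5, with 3207 ± 434 CPM in KO and 3833 ± 744 CPM in WT, and mt-Cytb, with 3019 ± 347 CPM in KO and 3349 ± 568 CPM in WT. Among protein-coding genes, Jarid2 ranked 1 by mean WT CPM.

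The counts cover introns as well as exons, so gene length enters that rank. All 1716 genes that lie wholly inside a same-strand protein-coding gene of at least 50 kb and 4000 counts were at 0 in every library, against 888 of 1600 (55.5%) such genes on the opposite strand. Counts therefore cover whole gene spans by strand, and bases shared by genes on the same strand count for neither. Levels of different genes are given here per kb of span that no other gene shares on that strand. On this scale Jarid2 averaged 20.2 ± 2.53 CPM per kb in KO and 22.8 ± 1.62 CPM per kb in WT, and ranked 207 of 33228 genes in WT. None of the 1159 genes with at least as long a span had a higher WT level per kb, and 45 of 17796 genes over 10 kb did. The median tested gene had 0.757 CPM per kb in WT. Per kb of merged exons, which make up 5.06% of its span, Jarid2 ranked 12.

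RefSeq annotates 2 starts for Jarid2 in the table used, 1300 and 1797 bases inside the span counted here. The 250 bases before each are shown because this gene gave the highest level of the 10. All of the 10 genes had entries in that table, with 15 windows between them. Capitals mark 3 promoter motifs searched as plain letters on both strands. The TATA box was TATAAA, with the reverse complement TTTATA. The CCAAT box was CCAAT, with the reverse complement ATTGG. The GC box was GGGCGG, with the reverse complement CCGCCC. These motifs do not overlap one another in the windows printed. Both windows are on the plus strand of GRCm38.p6, at chr13:44730524-44730773 and chr13:44731021-44731270.
Jarid2, upstream of start 1: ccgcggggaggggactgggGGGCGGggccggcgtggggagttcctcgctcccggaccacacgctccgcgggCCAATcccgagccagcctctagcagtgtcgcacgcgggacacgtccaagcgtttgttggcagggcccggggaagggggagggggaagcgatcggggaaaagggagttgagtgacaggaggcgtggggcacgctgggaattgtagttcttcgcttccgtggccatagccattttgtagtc
Jarid2, upstream of start 2: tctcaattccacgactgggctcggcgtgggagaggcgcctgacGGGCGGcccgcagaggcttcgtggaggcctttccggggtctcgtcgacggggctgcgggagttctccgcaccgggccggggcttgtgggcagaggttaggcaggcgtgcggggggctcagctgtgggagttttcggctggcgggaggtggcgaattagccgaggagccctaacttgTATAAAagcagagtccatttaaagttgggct
The windows hold 23 and 22 CpG dinucleotides, against a median of 6 over the 32851 windows of the table. TATAAA occurs in the second window, beginning 31 bases before the start, and in no other of the 15 windows, while 12.4% of all windows hold it or its reverse. The GC box occurs in 9 of the 15 windows, against 32.7% of all windows, and the CCAAT box in 6 of 15, against 33.8%. Each match describes letters only.

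Levels of the 10 genes spread widely. Per kb, they followed the order Jarid2, Mtf2, Eed, Suz12, Cbx7, Aebp2, Rnf2, Ezh2, Scmh1 and Ezh1 in WT, and the WT libraries of neighbours in that order did not overlap for any pair. In KO, Aebp2 overlapped with Rnf2 and with Ezh2, and Mtf2 overlapped with Eed. Mtf2 averaged 14.8 CPM per kb in KO and 18.2 CPM per kb in WT, the nearest of the members to Jarid2. Ezh1, at the low end, had 0.684 and 0.760 CPM per kb in KO and 0.659 and 0.6996 CPM per kb in WT, while its paralog Ezh2 had 2.80 and 2.92 CPM per kb in KO and 3.07 and 2.93 CPM per kb in WT. Ezh2 was thus 3.97 times Ezh1 per kb in KO and 4.42 times in WT. Other paralogs were lower than the members as well. Rnf2 was 6.97 times Ring1 per kb in KO and 6.69 times in WT. Mtf2 was 42.5 times the Polycomb-like gene Phf19 in KO and 29.3 times in WT. Cbx7 was 6.42 times Cbx2 in KO and 4.79 times in WT. The only RefSeq start of Cbx7 in the table used lies 38473 bases inside its counted span of 55.3 kb. If transcription begins there, its level per kb, its place in the order and its ratio to Cbx2 are too low here. That would also bear on which member stands nearest to Jarid2. Counts over the span do not say where transcription begins.

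**Figure D1:**
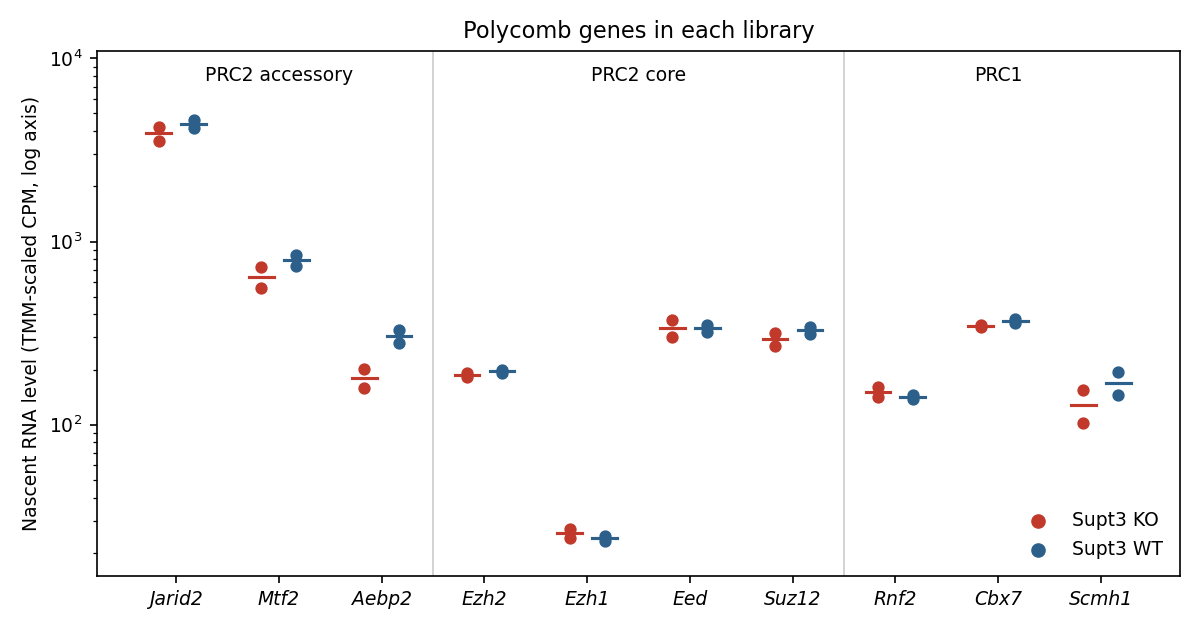
Level of each of the 10 genes in CPM on a log scale, with 1 point per library and KO left of WT. Jarid2 sits above all others, between 3546 and 4599 CPM, and Aebp2 is the gene with the widest separation of the genotypes, at 159 and 201 CPM in KO and 280 and 330 CPM in WT.

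Of the 10 genes, 1 passed the test between genotypes: Aebp2 was lower in KO. In the same edgeR fit 675 of 16789 tested genes were lower (4.02%) and 680 were higher (4.05%), 8.07% in all, so 1 call in 10 genes is near that background. The median log2 fold change of the 10 genes was −0.13, with 3 positive and 7 negative, against 0.01 over all tested genes. Both KO libraries lay below both WT libraries for 4 of the 10 (Aebp2, Mtf2, Ezh2 and Cbx7), against 26% of all tested genes, and above them for none, against 26.7%. The genotypes did not overlap for those 4 of 10, against 52.7% of all tested genes. DESeq2 and limma voom also called 1 of the 10, with backgrounds of 7.34% and 8.06%.

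Aebp2 encodes a zinc finger cofactor of PRC2.2 that stimulates the methyltransferase. It occupies bases 140622663 to 140678472 of chromosome 6, plus strand. It had 2145 and 3579 counts in KO and 3821 and 6309 counts in WT, which is 159 and 201 CPM in KO and 280 and 330 CPM in WT. Both KO libraries were below both WT libraries, by a margin wider than either pair's own spread. The mean was 180 ± 29.5 CPM in KO and 305 ± 35.2 CPM in WT (SD, n = 2 each), a log2 fold change of −0.76 ± 0.13 (SE) with an adjusted p of 0.0119 by edgeR's quasi-likelihood test, so the KO level was 41.0% lower. Its rank by CPM was 1454 in KO and 643 in WT. Leaving out any 1 library gave −0.94 to −0.60. Within pairs of libraries of like depth, KO was lower by 0.82 log2 units between the replicates 1 and by 0.72 between the replicates 2.

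RefSeq gives 3 starts for Aebp2, of which the first is the start of the counted span and the second lies 2246 bases inside it. Their upstream windows, chr6:140622413-140622662 and chr6:140624659-140624908 on the plus strand of GRCm38.p6, are shown for the member that passed the test, with the same motifs in capitals.
Aebp2, upstream of start 1: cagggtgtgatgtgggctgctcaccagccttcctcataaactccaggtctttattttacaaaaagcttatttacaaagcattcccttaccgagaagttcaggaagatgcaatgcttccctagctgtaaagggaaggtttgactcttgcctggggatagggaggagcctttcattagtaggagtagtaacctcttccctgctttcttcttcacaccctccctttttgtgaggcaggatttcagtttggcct
Aebp2, upstream of start 2: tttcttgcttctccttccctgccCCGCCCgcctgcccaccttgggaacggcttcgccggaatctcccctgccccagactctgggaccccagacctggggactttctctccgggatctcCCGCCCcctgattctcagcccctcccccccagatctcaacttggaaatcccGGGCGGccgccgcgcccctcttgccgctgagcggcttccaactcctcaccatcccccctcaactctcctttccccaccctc
The first window holds 1 CpG and none of the motifs. The second holds 14 CpGs and 3 GC boxes. Counts over the span do not say which start was used.

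Of the 10 tested genes nearest to Aebp2, 5 on each side, 4 were higher and 6 lower in KO, with a median log2 fold change of −0.06. The 6 lower genes flank Aebp2 directly, with Plekha5 (−0.09) and Gm44013 before it. After it come Gm11077 (−0.35), Pde3a (−0.03), Slco1b2 (−0.40) and Gm5724 (−1.03). The 4 higher genes lie further out. Whether the region changed together was not tested. Of the 10 genes only Gm44013 passed, as lower, and it is named here because its values were seen. It is a minus-strand locus, listed with the provisional biotype TEC, from 140620162 to 140622423. Its higher coordinate, where a minus-strand gene starts, lies 239 bases before the start of Aebp2, so the genes point away from each other. Gm44013 had 6 and 7 counts in KO and 38 and 41 counts in WT, a log2 fold change of −2.53 ± 0.40 with an adjusted p of 0.00740 (edgeR). Its level stayed between 0.393 and 0.445 CPM in KO and between 2.14 and 2.78 CPM in WT. It cleared the filter on low counts (minimum count 10) through the WT libraries alone, so its p carries that selection.

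**Figure D2:**
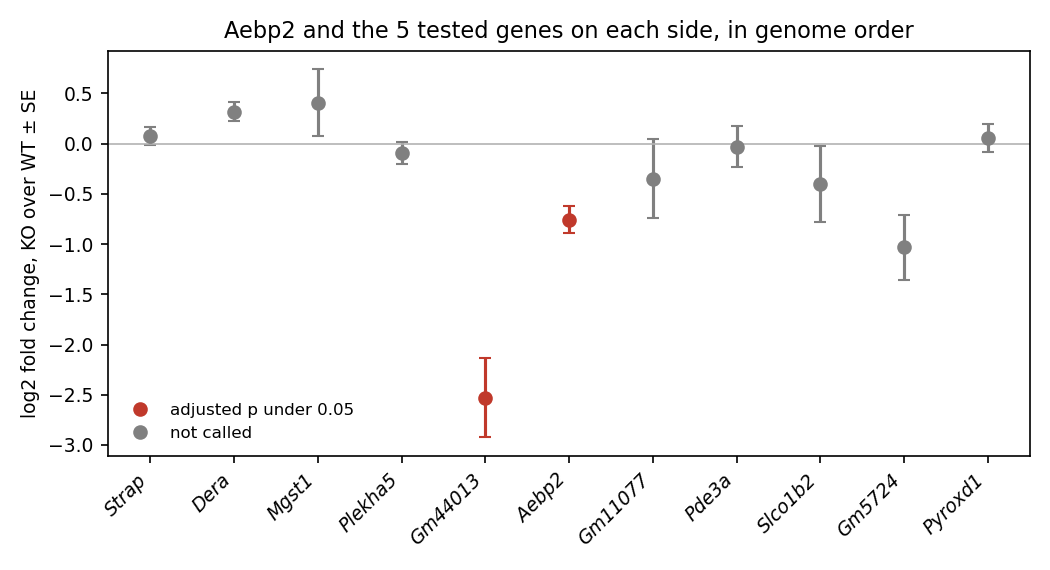
Log2 fold change (KO over WT, with SE bars) of Aebp2 and the 5 nearest tested genes on each side, in chromosome order. Aebp2 at −0.76 and Gm44013 at −2.53 are the 2 genes called lower. The other genes from Plekha5 (−0.09) to Gm5724 (−1.03) have negative values that did not pass.

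Mtf2 encodes the Polycomb-like protein of PRC2.1 that binds unmethylated CpG-rich DNA in ES cells. It occupies bases 108065674 to 108109004 of chromosome 5, plus strand. It had 558 and 727 CPM in KO and 733 and 848 CPM in WT. The groups did not overlap, although KO replicate 2 lay just under WT replicate 1. The log2 fold change was −0.30 ± 0.15 and did not pass (adjusted p = 0.284, edgeR). Without KO replicate 2 it was −0.50, and without KO replicate 1 it was −0.12. With a term for the depth pairs (replicates 1 against replicates 2), a fit that calls 25.7% of all tested genes, it was −0.31 and passed (adjusted p = 0.000337). Tmed5, which shares 2639 bases with Mtf2 on the opposite strand, had a log2 fold change of 0.34 (adjusted p = 0.10).

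Jarid2, which links PRC2.2 to chromatin marked by PRC1, had 3546 and 4233 CPM in KO and 4158 and 4599 CPM in WT. KO replicate 2 lay above WT replicate 1, so the groups overlapped. The log2 fold change was −0.17 ± 0.17 (adjusted p = 0.613, edgeR), and it ranged from −0.30 to −0.05 when 1 library was left out, never passing.

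The core PRC2 genes did not pass the test. Eed, whose protein reads methylated H3 and stimulates the enzyme, had 303 and 371 CPM in KO and 320 and 352 CPM in WT, with a log2 fold change of 0.0048 ± 0.12 (adjusted p = 0.988, edgeR). The KO values enclosed the WT values. Suz12, the scaffold of the complex, had 269 and 316 CPM in KO and 314 and 342 CPM in WT, with −0.17 ± 0.11 (adjusted p = 0.435). Its groups overlapped by a small margin. Ezh2 had 183 and 191 CPM in KO and 200 and 191 CPM in WT, with −0.07 ± 0.09 (adjusted p = 0.724). Ezh1, the weaker methyltransferase, had 24.2 and 26.9 CPM in KO and 23.3 and 24.7 CPM in WT, with 0.09 ± 0.12 (adjusted p = 0.723). In mm10 Eed occupies bases 89954654 to 89980983 of chromosome 7 and Ezh2 bases 47530139 to 47595341 of chromosome 6, both on the minus strand. Suz12 occupies bases 79993106 to 80034123 of chromosome 11, plus strand, and Ezh1 bases 101191115 to 101226463 of the same chromosome, minus strand.

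The PRC1 genes did not pass either. Rnf2, the ubiquitin ligase, had 141 and 161 CPM in KO and 137 and 145 CPM in WT, with a log2 fold change of 0.10 ± 0.10 (adjusted p = 0.601, edgeR). Cbx7, the main chromobox gene of ES cells, had 348 and 341 CPM in KO and 359 and 377 CPM in WT, with −0.09 ± 0.10 (adjusted p = 0.635). Its groups did not overlap, but the gap was small. Scmh1, a sterile alpha motif protein that associates with PRC1, had 102 and 154 CPM in KO and 146 and 194 CPM in WT. KO replicate 2 exceeded WT replicate 1, and the log2 fold change of −0.40 ± 0.19 did not pass (adjusted p = 0.249). Scmh1 depended on the libraries kept: it was −0.73 without KO replicate 2 and −0.60 without WT replicate 1. Leaving out KO replicate 1 gave −0.14. KO was lower in both depth pairs, by 0.51 log2 units between the replicates 1 and by 0.33 between the replicates 2. With the depth-pair term Scmh1 passed at −0.42 (adjusted p = 9.16e-08, edgeR). That fit calls 25.7% of all tested genes, and its pairs were formed from library totals, not from labels. Rnf2 occupies bases 151458004 to 151500955 of chromosome 1 and Cbx7 bases 79915807 to 79971119 of chromosome 15, both on the minus strand. Scmh1 occupies bases 120405281 to 120530186 of chromosome 4, plus strand.

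Of the genes that overlap a member and were tested, Apobec3 passed. It encodes a cytidine deaminase that restricts retroviruses, and it shares 100 bases with Cbx7 on the opposite strand. It had 35.2 and 38.2 CPM in KO and 53.6 and 63.8 CPM in WT (log2 fold change −0.68 ± 0.11, adjusted p = 0.0100, edgeR). E230029C05Rik, opposite Eed, stood at −0.40 (adjusted p = 0.137), and Trmt1l, opposite Rnf2, at 0.11. Gm45120 within Eed and Gm36527 within Rnf2, both on the same strand as their hosts, were at 0 in all libraries.

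**Figure D3:**
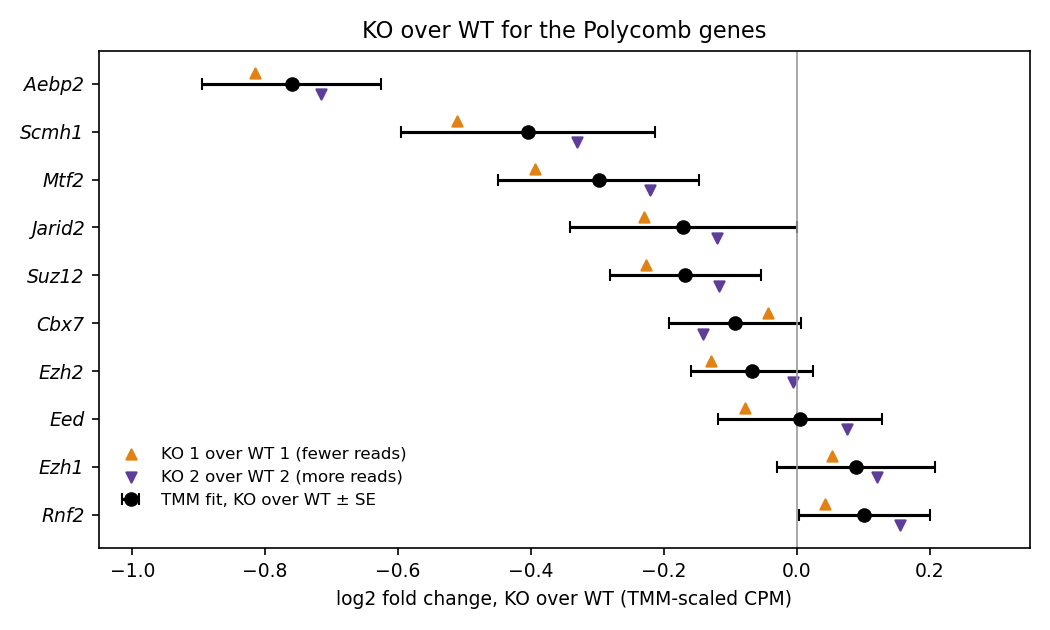
Log2 fold change (KO over WT) of the 10 genes in the TMM fit, with SE bars. Triangles give the difference in log2 CPM within each pair of libraries of like depth (KO 1 over WT 1, KO 2 over WT 2). In the fit Aebp2 at −0.76 is called and the other 9 lie between −0.40 and 0.10.

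Scaled to the S. pombe spike instead of to the mouse counts, all 10 genes had lower means in KO and none passed. The spike moved the median of all tested genes by −0.24 log2 units, and the KO libraries gave 2.71 and 4.86 mouse counts per spike count, against 3.25 and 5.60 in the WT libraries. Replicates therefore differed more than genotypes on this scale, and the biological coefficient of variation of the fit was 0.363, against 0.0952 with TMM. Aebp2 stood at −0.98 ± 0.79 (unadjusted p = 0.216, adjusted p = 1.00, edgeR). That was the most negative value of the 10, and Scmh1 followed at −0.62. On this scale 17 genes passed (0.101%), and at an unadjusted p under 0.05 no member did. The authors' deposited table gives Aebp2 a log2 fold change of −0.68 with p = 0.0743 (DESeq2), and an adjusted p of 0.999 for each of the 10 genes. That table is named as made with a beta prior, so its fold changes are not directly comparable in size with those of edgeR. The authors' deposited table holds 1 higher and 7 lower genes at an adjusted p under 0.05, among 29514 with a value.

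Ratios between members remove the choice of scale. For 10 ratios of counts, the KO and WT libraries did not overlap in 8, and the exact two-sided permutation test gave p = 0.333 for each of these, the smallest that 2 against 2 libraries allow (0.417 after Benjamini-Hochberg adjustment over the 10). Among single tested genes 52.7% did not overlap, and no such share was computed for ratios of other genes. The 10 ratios also share genes, so the number without overlap is not a result about the members. Aebp2 gave 0.285 and 0.276 counts per Mtf2 count in KO and 0.382 and 0.389 in WT, a difference of −0.46 log2 units. Between replicates that ratio differed by 0.05 log2 units in KO and 0.03 in WT. Per Jarid2 count, the other PRC2.2 gene, Aebp2 gave 0.0449 and 0.0474 in KO and 0.0673 and 0.0717 in WT (−0.59 log2 units). Per Suz12 count it gave 0.592 and 0.636 in KO and 0.891 and 0.964 in WT. Jarid2, unlike Aebp2, gave 13.2 and 13.4 counts per Suz12 count in KO and 13.2 and 13.4 in WT, a difference of −0.0029 log2 units (exact permutation p = 0.667). Eed gave 1.13 and 1.17 counts per Suz12 count in KO and 1.02 and 1.03 in WT. Scmh1 gave 0.724 and 0.957 counts per Rnf2 count in KO and 1.06 and 1.34 in WT.

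Of the members and other Polycomb genes compared, Suz12 was the closest to Jarid2 across the 4 libraries, and is named as that top match. The ratio of Jarid2 to Suz12 given above rests on the same counts. Centred on each gene's own mean, the log2 CPM values of Jarid2 and Suz12 differed by at most 0.013 in any library. Of 35 other Polycomb genes the closest to Jarid2 by the same measure were Lcor (0.10), Mga (0.11) and Rybp (0.11). Of 16789 tested genes, 975 came as close as Rybp or closer, and 2 besides Suz12 came as close as Suz12 or closer. The genes share libraries and depth. Of the 10 members, 8 were higher in the library with more reads in both genotypes, against 31.3% of tested genes. KO was below WT in both pairs of like depth for 7 of the 10, against 35.2% of tested genes.

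**Figure D4:**
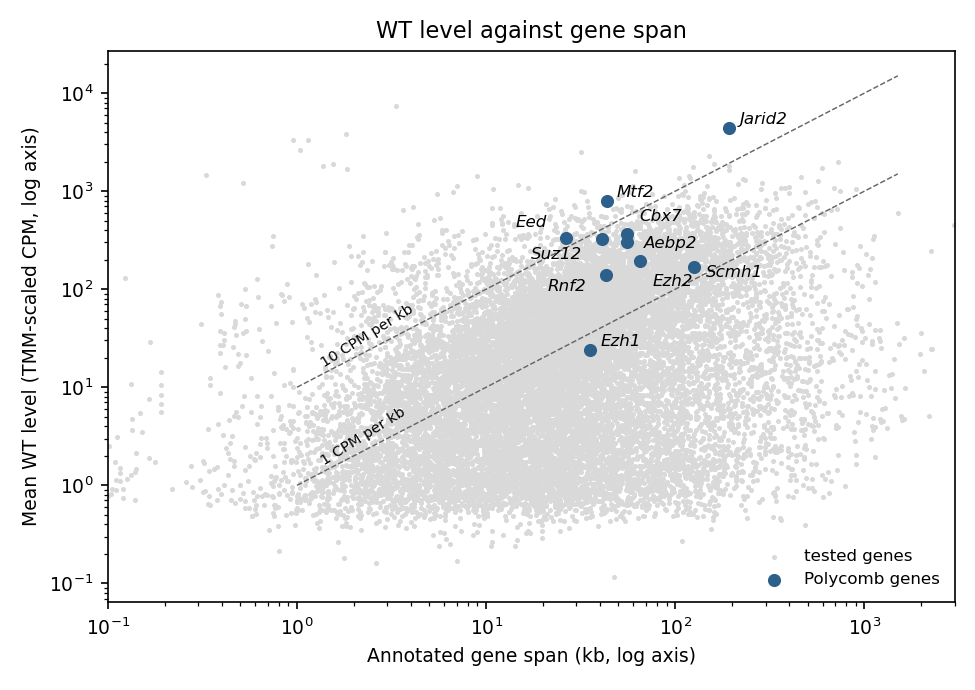
Mean WT level in CPM against gene span in kb, both on log axes, for the tested genes, with the 10 members named. Dashed lines mark constant CPM per kb. Jarid2 lies at 192 kb and 4378 CPM, which is 22.8 CPM per kb, and has no gene of equal or greater span above it.

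Elsewhere in the Polycomb system, calls went in both directions. Of 38 other genes of PRC2 and PRC1, 35 were tested, 3 rose in KO and 1 fell, and 31 did not pass, with a median log2 fold change of −0.01, as against 0.01 over all tested genes. The called share, 4 of 35, is to be read against 8.07%. Before adjustment 12 of the 35 had a p under 0.05, against 3842 of 16789 tested genes. With the depth-pair term 13 of the 35 passed, against 25.7% of all tested genes. Pcgf5, a ring finger subunit of variant PRC1, had 79.9 and 89.8 CPM in KO and 53.9 and 52.2 CPM in WT (0.68 ± 0.10, adjusted p = 0.00507, edgeR). Kdm2b, which brings variant PRC1 to CpG islands, had 303 and 287 CPM in KO and 211 and 223 CPM in WT (0.44 ± 0.10, adjusted p = 0.0262). Bcor, a corepressor of the same PRC1.1 complex as Kdm2b, fell, with 77.9 and 91.1 CPM in KO and 111 and 119 CPM in WT (−0.45 ± 0.10, adjusted p = 0.0310). These genes of PRC1.1 thus moved in opposite directions. Phc2, a polyhomeotic subunit of canonical PRC1, had 57.3 and 45.7 CPM in KO and 35.2 and 37.1 CPM in WT (0.51 ± 0.12, adjusted p = 0.0408). Calls were lost for Phc2 without KO replicate 1 (adjusted p = 0.0827) or WT replicate 1 (0.0641), for Kdm2b without either WT library (0.256 and 0.188), and for Bcor without WT replicate 2 (0.169). Pcgf5 passed whichever library was left out.

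Among the other PRC2 genes, 7 were tested, and neither edgeR nor DESeq2 nor limma voom called any. In edgeR 2 of the 7 had a p under 0.05 before adjustment. Those with the most counts, a measure that grows with gene length, were Lcor, which encodes a PRC2.1 partner from an alternative form of its transcript, and its paralog Lcorl. Lcor had 242 and 327 CPM in KO and 283 and 344 CPM in WT, and Lcorl had 198 and 237 CPM in KO and 212 and 216 CPM in WT. Both Polycomb-like paralogs of Mtf2 had lower means in KO without passing. Phf19 had 5.49 and 9.09 CPM in KO and 10.9 and 14.5 CPM in WT (−0.79, adjusted p = 0.0905). Phf1 had 2.08 and 2.08 CPM in KO and 2.93 and 3.87 CPM in WT (−0.72, adjusted p = 0.156).

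Genes that oppose Polycomb or place methyl groups on lysine 4 of H3 gave 1 call in 24, against 8.07% of all tested genes. With the depth-pair term 8 of the 24 passed, against 25.7%. Of the 12 opposing genes, neither edgeR nor DESeq2 nor limma voom called any, and in edgeR 1 had a p under 0.05 before adjustment. Those with the most counts, again not scaled to length, were Kdm6a, a demethylase of H3 lysine 27, with 560 and 613 CPM in KO and 584 and 652 CPM in WT, and Asxl1, a partner of the H2A deubiquitinase BAP1, with 377 and 389 CPM in KO and 429 and 471 CPM in WT. Of the 12 genes for H3 lysine 4 methylation, Dpy30, a subunit shared by all of the SET1 and MLL complexes, fell. It had 47.0 and 53.5 CPM in KO and 101 and 117 CPM in WT (−1.12 ± 0.11, adjusted p = 0.00139). Dpy30 lies on chromosome 17, where 7 of its 10 nearest tested genes also passed as lower, against 4.02% of all tested genes. The median log2 fold change over the 10 was −0.79. The part of that neighbourhood in its fall was not tested. Among the members and other called genes checked likewise, the most neighbours called in 1 direction was 3, for Cdx2, where all 10 were higher. For Scmh1, 9 of 10 were lower and 1 higher, and none passed.

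Of 65 developmental genes known as Polycomb targets in ES cells, 29 passed the filter on low counts, and 5 of these passed as higher while none passed as lower, against 4.05% and 4.02% of all tested genes. DESeq2 gave an adjusted p to 20 and called 3, all higher. The median log2 fold change of the 29 was 0.33. The other 36 had means of 0.689 CPM or less in each genotype, and a gene that clears the filter only where it is high had to differ, so neither the count nor the median supports a statement on the list. Gata4, Gata6 and Sox17, regulators of primitive endoderm, are also among the primitive endoderm markers. Gata4 had 51.9 and 77.7 CPM in KO and 24.1 and 31.7 CPM in WT (1.21 ± 0.20, adjusted p = 0.00824, edgeR). Gata6 had 42.9 and 74.6 CPM in KO and 22.3 and 27.6 CPM in WT (1.24 ± 0.23, adjusted p = 0.0145). Sox17 had 5.86 and 7.69 CPM in KO and 2.49 and 2.46 CPM in WT (1.46 ± 0.24, adjusted p = 0.00920). The summed primitive endoderm markers were higher in both KO libraries, as given above, and their part in this result was not tested. Without the 4 targets that are primitive endoderm markers, 2 of 25 tested genes passed as higher. Cdx2, a trophoblast regulator, had 1.48 and 0.898 CPM in KO and 0.293 and 0.209 CPM in WT (2.21 ± 0.52, adjusted p = 0.0357). It rests on 20 and 16 counts in KO and 4 and 4 counts in WT, so it cleared the filter through the KO libraries alone and its p carries that selection. Gata3, active in trophoblast as well, had 7.79 and 6.90 CPM in KO and 4.10 and 3.87 CPM in WT (0.88 ± 0.20, adjusted p = 0.0322). Neither passed without WT replicate 2 (adjusted p = 0.225 for Cdx2 and 0.146 for Gata3), nor did Cdx2 without KO replicate 1 (0.136). Of 14 Hox genes, 4 were tested and neither edgeR nor DESeq2 nor limma voom called any, and in edgeR 0 of the 4 had a p under 0.05 before adjustment.

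**Figure D5:**
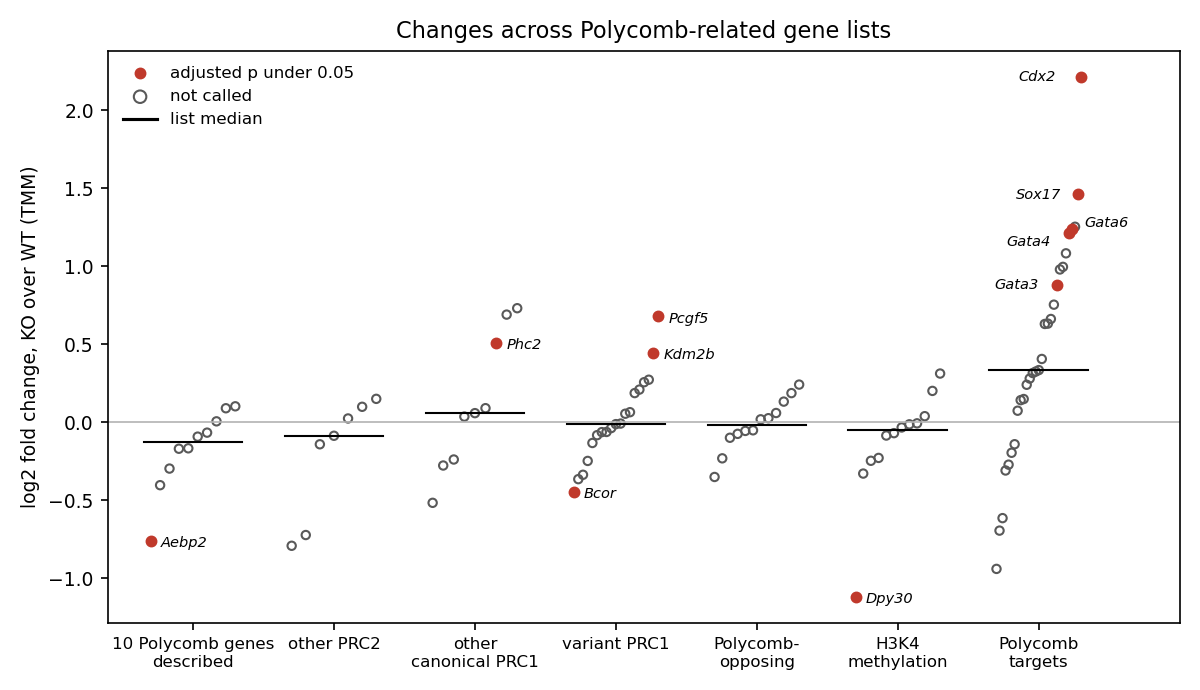
Log2 fold change (KO over WT) of each tested gene in each list, with called genes marked and the list median as a line. The 10 members have a median of −0.13 with 1 call, and the target genes 0.33 with 5 calls, all higher. The other Polycomb genes are drawn as separate lists. Their medians are −0.09 for other PRC2 genes (0 calls), 0.06 for other canonical PRC1 genes (1 higher) and −0.01 for variant PRC1 genes (2 higher, 1 lower).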

How the data were processed

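Raw counts per mouse gene and per S. pombe gene were deposited by the authors for 4 nascent RNA libraries, 2 KO and 2 WT, each made from 50 ng of 4sU-labelled RNA with a stranded kit and 10 PCR cycles, per the labels' protocols. Reads were handled with cutadapt 1.10, STAR 2.5.3 (mm10), HTSeq 0.6.1p1 and DESeq2 1.16.1, per the submitters' processing notes. Neither the counted feature nor the annotation used is stated in these sources. The authors' deposited comparison table repeats the counts and adds signal (counts divided by 1 size factor per library), log2 fold changes and p-values. 

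Mouse counts were tested with edgeR 4.0.16 (quasi-likelihood, TMM, filterByExpr minimum count 10, R 4.3.3), with p-values adjusted by Benjamini-Hochberg over all 16789 genes tested and a threshold of 0.05. A second scale took library sizes from the spike counts. Standard errors (SE) were obtained from F as |log2 fold change|/√F. Steps were tested on simulated data. DESeq2 1.42.0, limma 3.58.1 (voom), RLE scaling, no filter, a term for the depth pairs (replicates 1 against replicates 2) and leaving out each library were the alternatives. Depth ran from 13092151 to 19405100 mouse counts, and PCR duplicates were not separated from molecules. Replicates are numbered in accession order, which pairs nothing. Coordinates are those deposited, and 52787 of 54146 genes, all 10 members included, have the same ones in GENCODE M21. Promoter sequences are RefSeq's, build GRCm38.p6.

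The members and gene lists were chosen with earlier results of these data known. The text names all members, genes overlapping them that were tested, the genes next to Jarid2 in rank, up to 4 called genes per direction of each list (or its 2 most abundant where none was called), paralogs by level, and the 3 other Polycomb genes nearest to Jarid2 across libraries. Phf19 and Phf1 values, Gm44013 and the check of neighbours were chosen after values were seen.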

Additional observations from a re-analysis of the deposited data

How the results depend on the processing

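Aebp2 kept its direction in all 10 alternatives and its call in all but the spike-in scale (−0.98). Spike-in scaling left 17 genes called over all genes (1 higher, 16 lower), against 1355 with TMM, and 0 members, 0 other Polycomb genes, 0 opposing or H3K4 genes and 0 targets. Without a low-count filter there were 2460 calls in all (1260 higher, 1200 lower), 2 members (Aebp2 and Scmh1) and 8 targets. The depth-pair term gave 4307 calls in all (2214 higher, 2093 lower; 25.7%), 3 members (Aebp2, Mtf2 and Scmh1), 13 other Polycomb genes, 8 opposing or H3K4 genes and 8 targets. DESeq2 gave 3 targets, with Cdx2 not among the genes given an adjusted p and Gata3 at 0.0674. Leaving out 1 library gave 818 (without WT replicate 2) to 2823 calls in all (without KO replicate 2), 1 to 3 members, 2 to 8 other Polycomb genes, 1 to 4 opposing or H3K4 genes and 3 to 7 targets; on the spike-in scale it gave 0 members throughout. Signs turned for Ezh1 (−0.14) and Rnf2 (−0.12) on the spike-in scale. Eed turned to −0.21 on the spike-in scale, −0.0010 with RLE and with DESeq2, −0.0025 with voom, and ranged from −0.15 to 0.14 with 1 library left out. The causes were not tested. The rank of Jarid2 in WT was 2 by CPM, 207 per kb of span, 12 per kb of exons, 3 in WT replicate 1 alone and 1 among protein-coding genes. No analysis paired by label was possible because the labels carry no replicate numbers, and the depth-pair term groups libraries by their totals, not by a labelled pairing. Alternatives for single genes of the lists were chosen after seeing the data. With 2 libraries per genotype, only differences well above the spread of the pairs can pass, and low genes such as Cdx2 rest on few counts.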
